A study of Mus musculus with 24 samples.

Results

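Mitochondrial ribosomal protein genes, the nuclear genes that encode the proteins of the ribosome inside mitochondria, were followed over 8 groups of sorted mouse blood progenitors. A gene was taken when its single symbol on the array was Mrpl (large subunit) or Mrps (small subunit) followed by a number, and each gene was represented by its probe set with the highest mean signal over the 24 arrays. The rule gave 76 of 18193 measured genes, 47 named Mrpl and 29 named Mrps. It uses no expression differences, but it was chosen with earlier results of these data known. Mrpl30 and Mrpl53 were measured only by probe sets shared with another symbol and were not members.

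The mitochondrial ribosome translates the few messenger RNAs of the mitochondrial genome, which encode core subunits of the respiratory chain and ATP synthase. Its proteins are made in the cytosol and imported, so a complete particle needs the products of many scattered nuclear genes. Part of the proteins descend from the bacterial ribosome, and others were added during the evolution of mitochondria. Blood stem cells are known for a low rate of oxidative metabolism, and committed erythroid progenitors for a high demand on mitochondria, where heme synthesis begins and ends.

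RNA was measured on one-colour Affymetrix arrays, 3 per group, as log2 signal. Each of 4 populations was sorted from wild-type (WT) mice of the B-p-GFP-C reporter line (C57BL/6 x C3H) and from Ikaros-null (KO) mice of the I74 line (C57BL/6 x 129SV) that carry the same reporter, whose GFP is driven by regulatory sequence of the Ikaros gene. Ikaros is a DNA-binding protein that guides blood cell fate. Per the labels, LSK GFPneg-lo cells are stem cells (HSC), LSK GFPhi cells lymphoid-primed progenitors (LMPP), LK GFPneg cells megakaryocyte and erythroid progenitors (MEP) and LK GFPhi cells granulocyte and monocyte progenitors (GMP). Ages are not given, nor whether an array holds 1 animal or a pool. The 2 lines differ in strain as well as genotype, so strain and loss of Ikaros cannot be told apart.

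In WT cells the marker lists followed the labels in part. All 5 stem cell genes were lower in LK GFPneg than in LSK GFPneg-lo cells, 6 of 6 megakaryocyte and erythroid genes were lower in LK GFPhi than in LK GFPneg cells, and 5 of 5 granulocyte and monocyte genes were higher. Car1, Epor, Gata1 and Klf1 were higher in LK GFPneg than in LSK GFPneg-lo cells. Itga2b (9.49 against 10.94) and Vwf (7.93 against 9.01) were lower. Of the lymphoid-primed genes, Ccr9, Dntt and Flt3 were lower in LK GFPhi than in LSK GFPhi cells. Il7r (9.995 against 8.83) and Rag1 (5.83 against 5.02) were higher. Ikzf1, the gene of Ikaros, lay between 10.99 and 11.99 on the WT arrays and between 6.51 and 8.88 on the KO arrays. Eif2s3y, a gene on the Y chromosome, measured between 7.88 and 10.40 on the WT arrays. Of these, replicate 2 of each population gave 7.88 to 8.10 and the other replicates 8.91 to 10.40. Eif2s3y measured between 7.20 and 8.33 on 5 KO arrays (replicate 2 of each population and LK GFPhi replicate 3) and between 3.99 and 4.14 on the other 7. The Y-linked signal, and so possibly the sex of the mice, thus differed with genotype and with replicate number. Sex and loss of Ikaros are therefore only partly told apart in the KO comparisons. Genes of mature B and T cells stayed at a mean of 5.69 to 6.21 on every array, under the median gene. Precision is limited by having 3 arrays per group.

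Promoter sequence was matched by symbol to RefSeq windows of 300 bases (250 before to 50 after a gene's start, GRCm38.p6) for 67 of the 76 genes, which gave 73 windows. Some genes have several windows, each counted. Those of Mrpl2 overlap almost fully and share E box, SP1 and CCAAT matches. Motifs of factors known to drive nuclear genes of mitochondria were searched on both strands. The ETS motif CCGGAAG, bound by GABP among others, was in 34.2% of the 73 windows and in 8.86% of all 32851 windows. The motif of NRF1, GCGCNTGCG, was in 23.3% against 6.31%, and that of YY1, AAGATGGCG, in 10.96% against 1.40%. At least one of these 3 was in 56.2% of the windows and 14.9% of all windows, and ETS and YY1 matches overlapped in 0 windows. General motifs differed less, with SP1 (GGGCGG) in 53.4% against 35.7%, the CCAAT box (CCAAT) in 39.7% against 37.4% and the E box (CACGTG) in 9.59% against 7.15%. Median GC content was 58.7% against 52.7%, and a match is a description of letters, not of binding.

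Windows are printed for 4 genes that rose in KO cells (Mrpl51, Mrpl52, Mrpl43 and Mrpl36). These carry different sets of motifs, with ETS in Mrpl51, Mrpl52 and Mrpl43. They are examples and do not stand for all genes that rose. Of the others that rose in KO LK GFPhi cells, Mrpl17, Mrpl22 and Mrps16 have an ETS match in a window and Mrpl41 and Mrps24 have none. A further printed window is that of Mrpl50, the gene with the widest range over the groups. Each runs 5′ to 3′ along the gene's strand over 280 bases, 250 before the start and 30 after it, and all matches to the 6 motifs are in capitals. They are chr6:125191950-125192229 on the plus strand, chr14:54426659-54426938 on the plus strand, chr19:45006413-45006692 on the minus strand, chr13:73330759-73331038 on the plus strand and chr4:49521054-49521333 on the minus strand, in the printed order.
Mrpl51: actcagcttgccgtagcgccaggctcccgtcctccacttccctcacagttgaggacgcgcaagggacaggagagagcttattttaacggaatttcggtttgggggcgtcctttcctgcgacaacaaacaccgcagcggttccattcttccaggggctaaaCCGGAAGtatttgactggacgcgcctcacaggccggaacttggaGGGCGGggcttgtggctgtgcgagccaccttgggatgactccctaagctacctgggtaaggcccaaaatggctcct
Mrpl52: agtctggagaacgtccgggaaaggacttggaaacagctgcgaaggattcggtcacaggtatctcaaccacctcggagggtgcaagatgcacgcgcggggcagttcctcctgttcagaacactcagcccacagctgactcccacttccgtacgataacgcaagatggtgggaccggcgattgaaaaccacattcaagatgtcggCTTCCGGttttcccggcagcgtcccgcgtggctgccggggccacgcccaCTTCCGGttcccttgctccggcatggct
Mrpl43: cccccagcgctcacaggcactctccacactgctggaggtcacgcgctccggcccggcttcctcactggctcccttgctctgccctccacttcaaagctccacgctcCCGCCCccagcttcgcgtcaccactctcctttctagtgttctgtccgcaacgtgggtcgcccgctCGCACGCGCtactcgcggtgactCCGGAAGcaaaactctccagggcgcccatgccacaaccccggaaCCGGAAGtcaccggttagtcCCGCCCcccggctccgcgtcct
Mrpl36: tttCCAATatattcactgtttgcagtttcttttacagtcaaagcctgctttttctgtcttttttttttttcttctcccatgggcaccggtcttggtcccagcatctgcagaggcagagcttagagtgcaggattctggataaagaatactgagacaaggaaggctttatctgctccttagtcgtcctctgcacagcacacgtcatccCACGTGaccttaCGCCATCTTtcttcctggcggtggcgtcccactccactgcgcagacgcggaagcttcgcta
Mrpl50: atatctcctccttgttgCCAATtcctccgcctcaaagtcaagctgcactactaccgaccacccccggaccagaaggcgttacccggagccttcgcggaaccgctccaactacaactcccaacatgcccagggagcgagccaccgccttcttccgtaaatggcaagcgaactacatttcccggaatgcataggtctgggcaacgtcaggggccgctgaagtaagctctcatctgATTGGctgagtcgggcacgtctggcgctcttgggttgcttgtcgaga
The Mrpl51 window holds an ETS match at base 161 and an SP1 match at base 205. That of Mrpl52 holds ETS matches at bases 204 and 253, the second just past the start. Mrpl43 has an NRF1 match at base 172, ETS matches at 195 and 239 and SP1 matches at 107 and 259. Mrpl36 has a YY1 match at base 220, an E box at 208 and a CCAAT box at 4. The Mrpl50 window holds none of the NRF1, ETS and YY1 motifs, only CCAAT boxes at bases 18 and 234.

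Of the 73 windows, 25 (34.2%, against 10.8% of all windows) overlapped the window of another gene on the opposite strand. The nearly identical windows of Mrpl2, which overlap that of Klc4, count separately here. Mrpl43 lies head to head with Twnk, which encodes the mitochondrial DNA helicase, Mrps12 with Sars2, the mitochondrial seryl-tRNA synthetase gene, and Mrpl47 with Ndufb5, a complex I gene. Mrpl46 and Mrps11 share a start region with each other. The 76 genes lie on 17 chromosomes, with 11 on chromosome 11, which also holds Ikzf1. Mrps24 was the only member within 10 Mb of Ikzf1, at 5.98 Mb.

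All 76 genes had a mean signal above that of the median gene, with a median over the members of 10.03 against 7.46 over all genes. Means over the 24 arrays ran from 7.76 (Mrps11), 7.94 (Mrpl54) and 8.13 (Mrpl37) to 11.68 (Mrpl15), 11.91 (Mrpl51) and 12.01 (Mrpl39). Signal also depends on the probes, so these values order probe sets and not the amounts of the genes' RNA.

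**Figure D1:**
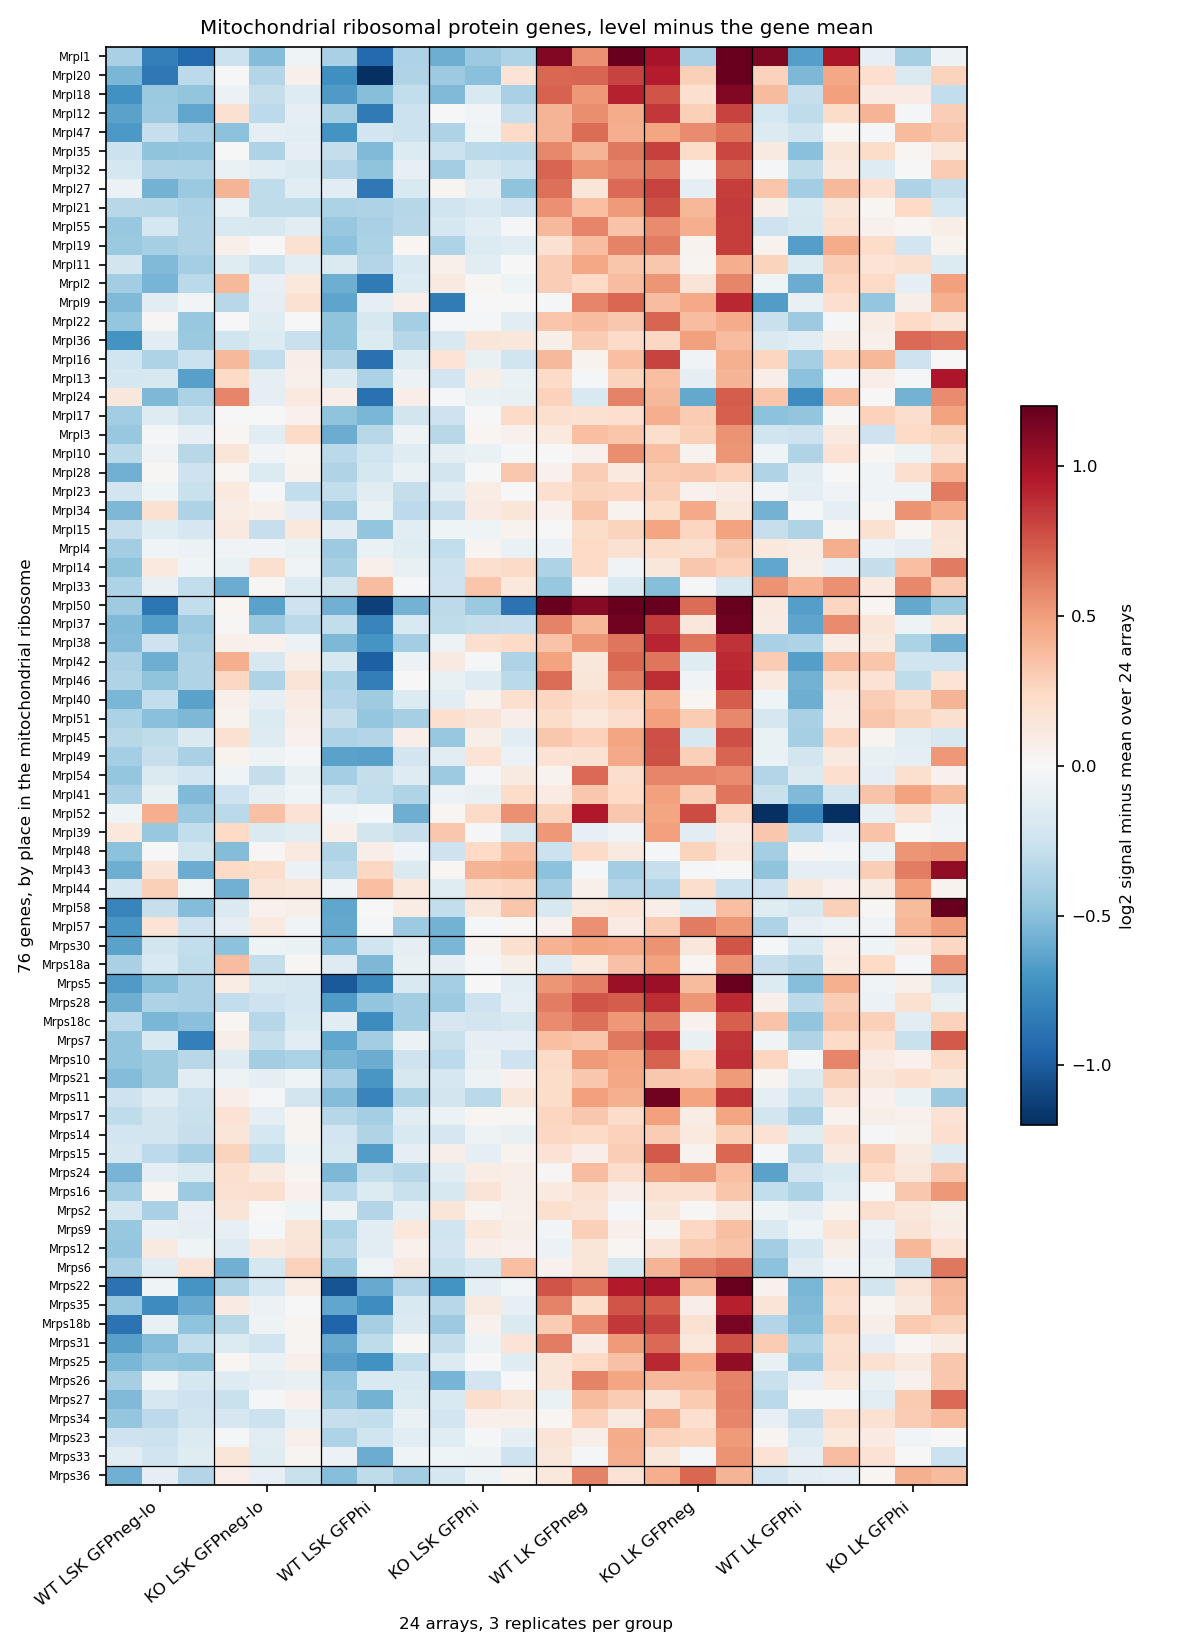
Log2 signal of the 76 genes (rows) on the 24 arrays (columns), each minus the gene's mean over all arrays, in blocks from top to bottom for large subunit proteins with a bacterial counterpart, large subunit proteins found in mitochondria only, 2 unsorted genes, 2 S-named proteins of the large subunit, the 2 kinds of small subunit protein in the same order, and Mrps36. Most rows are red in the LK GFPneg columns and blue in the WT LSK columns, and Mrpl33, Mrpl43 and Mrpl44 depart from this.

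The 76 genes moved largely together over the 8 groups. Their highest group mean was in KO LK GFPneg cells for 55 genes, in WT LK GFPneg for 11, in KO LK GFPhi for 9 and in WT LK GFPhi for 1 (Mrpl33). The lowest group was WT LSK GFPhi for 36 genes, WT LSK GFPneg-lo for 33, WT LK GFPhi for 5, WT LK GFPneg for 1 (Mrpl44) and KO LSK GFPhi for 1. Over the 8 group means, the correlation of a gene with the mean of the other members had a median of 0.93 and was above 0.5 for 72 of 76. The groups share arrays' normalization, and this is a description with no test.

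Averaged over the 76 genes, the arrays gave 9.65 ± 0.08 (SD, n = 3) in WT LSK GFPneg-lo and 9.66 ± 0.13 in WT LSK GFPhi, the lowest groups and indistinguishable beside their spread. KO LSK GFPhi (9.91 ± 0.11), WT LK GFPhi (9.91 ± 0.22) and KO LSK GFPneg-lo (9.93 ± 0.06) followed and overlapped each other. KO LK GFPhi averaged 10.12 ± 0.09, WT LK GFPneg 10.32 ± 0.07 and KO LK GFPneg 10.44 ± 0.21. The last 2 overlap, because KO LK GFPneg replicate 2 (10.21) lay below all 3 WT arrays and its other replicates (10.50 and 10.62) above them. In bulk samples, fewer cells with a given RNA and less of it per cell cannot be told apart.

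**Figure D2:**
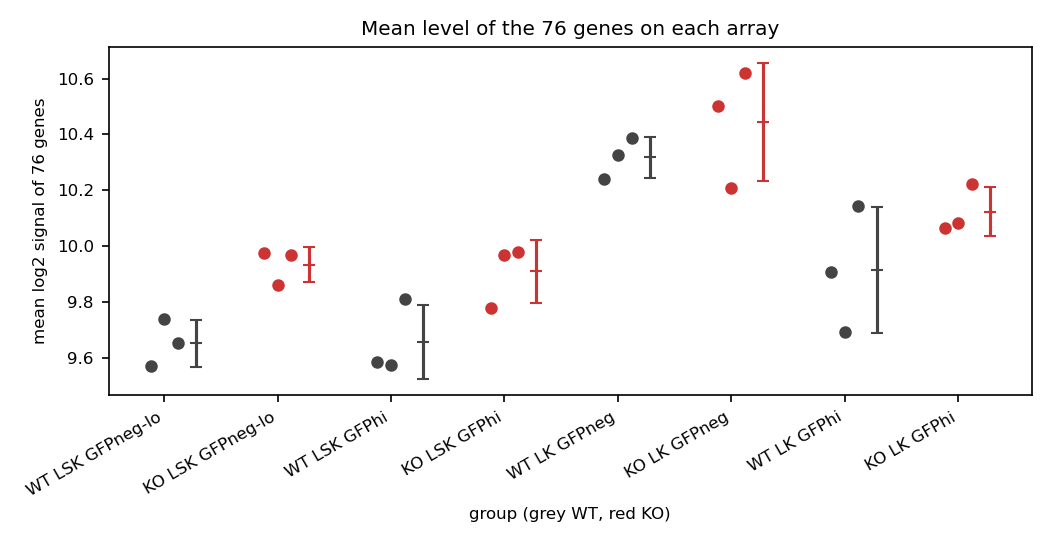
Mean log2 signal of the 76 genes on each array (points, replicates 1 to 3 from left to right) by group, with the mean and SD of the 3 arrays beside them. The 3 KO LSK GFPneg-lo arrays (9.86 to 9.97) lie above the 3 WT arrays (9.57 to 9.74), and both LK GFPneg groups lie above 10.2.

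The widest range of group means was that of Mrpl50 (2.04 log2 units), followed by Mrpl1 (1.71), Mrpl20 (1.70), Mrpl52 (1.66) and Mrps5 (1.53). The narrowest was that of Mrpl39 (0.36). The genes most like the mean of the others were Mrpl12 (r = 0.997 over 8 groups), whose protein forms the stalk of the large subunit, and Mrps18b (0.99). Mrpl44 (-0.54), whose protein has a ribonuclease III-like fold, and Mrpl33 (-0.17) ran against the others, and Mrpl43 (0.09) was unrelated to them.

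Among WT cells, the step from LSK GFPneg-lo to LK GFPneg separated these genes most. Of the 76, 54 rose in LK GFPneg cells and 0 fell by limma with Benjamini-Hochberg adjustment over all 18193 genes (called where adjusted p was below 0.05, here and throughout). Over all genes 13.0% rose and 14.1% fell. The median difference was 0.62 (75 of 76 positive), against 0.03 over all genes and 0.07 over the 8290 genes at or above the signal of the dimmest member. The 3 LK GFPneg arrays all lay above the 3 LSK GFPneg-lo arrays for 63 members (21.6% of all genes). For the 54 called genes, 48 of 53 other probe sets had the same sign and 5 the opposite sign. Of the 32 brighter than the median probe set, 29 had the same sign. Array medians were 0.17 lower in LK GFPneg cells. With medians set equal, the members' median was 0.79, and the share of higher calls among all called genes went from 47.99% to 73.5%.

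Mrpl50, a large subunit protein found in mitochondria only, was 8.72, 8.28 and 8.85 on the WT LSK GFPneg-lo arrays and 10.37, 10.24 and 10.69 on the LK GFPneg arrays. No array of one group comes near the other, and the gene rose by 1.82 ± 0.28 (standard error, 3.53-fold, adjusted p = 4.45e-05). Its other probe set gave 1.42. Mrps28, of the small subunit, went from 9.58, 9.80 and 9.78 to 10.78, 10.92 and 10.89. It had the smallest adjusted p of the members (2.48e-06) with a rise of 1.15 ± 0.14. Mrpl18, a large subunit protein with a bacterial counterpart, went from 9.996, 10.28 and 10.25 to 11.43, 11.24 and 11.65, a rise of 1.26 ± 0.21 (adjusted p = 0.000106). The groups of each of these genes were fully apart.

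Further large rises were those of Mrpl1 (1.71 ± 0.42), which encodes a protein of the mobile L1 stalk, Mrps22 (1.33 ± 0.27), Mrpl20 (1.30 ± 0.29) and Mrpl37 (1.26 ± 0.27). By place in the ribosome, 20 of 29 large subunit genes with a bacterial counterpart rose (median 0.64), 11 of 16 large subunit genes found in mitochondria only (0.63), 12 of 16 small subunit genes with a bacterial counterpart (0.51) and 9 of 10 small subunit genes found in mitochondria only (0.68). None of these lists held a fallen member in this comparison. The 22 genes not called ranged from -0.24 (Mrpl44) to 0.65 (Mrpl9). Mrpl43 (0.03) and Mrpl33 (0.04) were among the flattest. The 3 paralogs of bacterial S18 differed, with Mrps18b (1.06) and Mrps18c (1.04) called and Mrps18a (0.40), which sits in the large subunit, not. Mrps36 (0.65 ± 0.14), known as a subunit of the ketoglutarate dehydrogenase complex rather than of the ribosome, rose as well.

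The wider machinery of mitochondrial gene expression is given for the same comparison. Of 8 translation factor genes 4 rose, with Gfm1, an elongation factor gene, at 1.45 ± 0.21 and Tsfm at 1.10 ± 0.17. Of 16 mitochondrial tRNA synthetase genes 6 rose, with Nars2 at 0.82 ± 0.16 and Iars2 at 1.84 ± 0.39. Of 19 genes of ribosome assembly and rRNA modification 9 rose, with Mpv17l2 at 0.92 ± 0.11, Mrm3, an rRNA methyltransferase gene, at 0.71 ± 0.12 and Noa1, an assembly GTPase gene, at 0.99 ± 0.17. Of 9 genes of mitochondrial transcription and DNA 4 rose, among them Polg (0.64 ± 0.14), the gene of the mitochondrial DNA polymerase, and Lrpprc (1.71 ± 0.44), and 3 of 4 ribosomal protein genes with other symbols rose, among them Ptcd3 (1.45 ± 0.19) and Dap3 (0.86 ± 0.19). None of the genes in these 5 lists fell here.

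Of 91 nuclear genes of the respiratory chain and ATP synthase, 41 rose and 1 fell (median 0.32). The 50 cytosolic ribosomal protein genes had a median of 0.00, with 3 higher and 0 lower. Proliferation genes moved as well, with 11 of 19 higher and a median of 0.74, and their part in the result was not tested. Among 8 regulator genes, Pprc1, a PGC-1-related coactivator gene, rose by 0.66 ± 0.13 and Ppargc1a, the gene of PGC-1 alpha, fell by 1.18 ± 0.22. Of 21 measured head-to-head neighbours of the members, 7 rose and 1 fell (median 0.22).

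**Figure D3:**
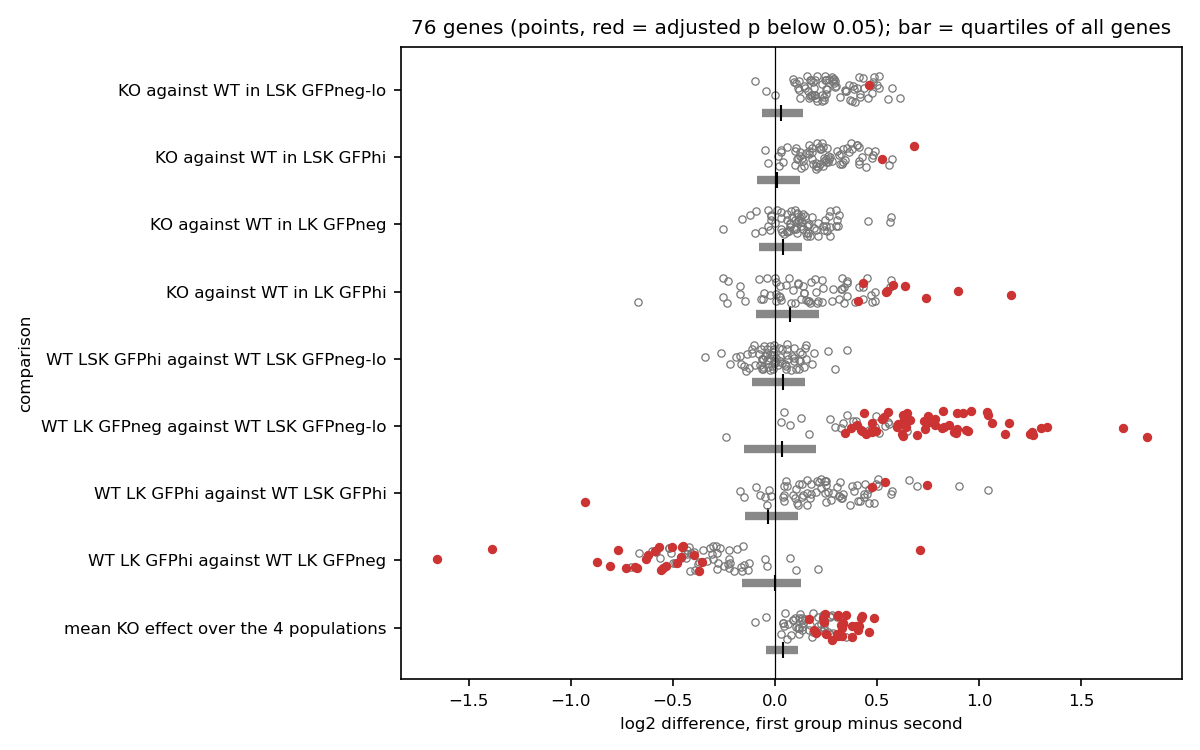
Log2 difference (first group minus second) of each of the 76 genes in 8 comparisons of groups and for the mean KO effect, as points spread vertically for legibility, filled red where the adjusted p was below 0.05; the grey bar spans the quartiles of all 18193 genes and the tick their median. The points of LK GFPneg against LSK GFPneg-lo lie mostly right of the bar (median 0.62) and those of LK GFPhi against LK GFPneg mostly left of it (median -0.40).

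Between the WT LK populations the direction turned. In LK GFPhi cells 23 members were lower than in LK GFPneg cells and 1 was higher, where 8.60% of all genes were lower and 9.98% higher. The median difference was -0.40 (4 of 76 positive) against -0.00 over all genes, and -0.51 with array medians set equal (they were 0.11 higher in LK GFPhi). That scaling lowered the share of higher calls among all called genes from 53.7% to 39.7% and raised the count of called members from 24 to 37. The LK GFPhi arrays lay below all LK GFPneg arrays for 38 members (15.5% of all genes). For the 24 called genes, 29 of 32 other probe sets had the same sign, as did 18 of the 20 brighter than the median probe set. With the replicate number as a block, which these arrays support, 41 members were called. Without LK GFPhi replicate 2, the array with the lowest mean of the 76 genes in its group, 11 were called, all among the 24. Without LK GFPneg replicate 3 or LK GFPhi replicate 1, 15 were called.

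Mrpl52, a large subunit protein found in mitochondria only, was 11.77, 12.46 and 11.82 in WT LK GFPneg and 10.13, 10.73 and 10.22 in WT LK GFPhi cells, a fall of 1.66 ± 0.25 on the log2 scale (adjusted p = 3.49e-05). It was the lowest group of the gene in the series, and its 2 other bright probe sets differed by -2.26 and -2.02. Mrpl50 went from 10.37, 10.24 and 10.69 to 9.27, 8.49 and 9.40, and fell by 1.38 ± 0.28, with its other probe set at -0.95. Mrps22 (-0.87 ± 0.27), Mrps5 (-0.81 ± 0.24), Mrps18b (-0.77 ± 0.26) and Mrpl38 (-0.73 ± 0.16) fell as well.

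Mrpl33, the gene of a protein of the large subunit, was the one member that rose. It was 9.13, 9.59 and 9.39 in WT LK GFPneg and 10.12, 9.99 and 10.13 in WT LK GFPhi cells, with no overlap, and rose by 0.71 ± 0.19 (adjusted p = 0.00976). Its other probe set was dim (mean 5.08) and gave 0.05. Of the wider machinery, 3 of 8 translation factor genes, 5 of 16 tRNA synthetase genes, 7 of 19 assembly genes and 2 of 4 ribosomal protein genes with other symbols fell and none rose, whereas 5 of 91 respiratory chain genes fell and 1 rose (median -0.15). Noa1 fell by 1.05 ± 0.17, Gfm1 by 0.84 ± 0.21 and Pprc1 by 0.87 ± 0.13.

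LK GFPhi cells stood above LSK GFPhi cells for few members. Mrps10 rose by 0.74 ± 0.16 (adjusted p = 0.00762), Mrps28 by 0.54 ± 0.14 and Mrps21 by 0.47 ± 0.13, all of the small subunit, and Mrpl52 fell by 0.93 ± 0.25. Genes with a bacterial counterpart had medians of 0.25 in the large and 0.28 in the small subunit. Those found in mitochondria only had medians of 0.16 and 0.32. Over all genes 2.02% rose and 2.53% fell, and the members' median was 0.25 with 67 of 76 positive. Mrps10 was 9.51, 9.47 and 9.82 in LSK GFPhi and 10.32, 10.05 and 10.66 in LK GFPhi cells, fully apart. For the 4 called genes, 3 of 5 other probe sets had the same sign and 2 the opposite sign. The count of called members depended on single arrays. It was 0 without LK GFPhi replicate 3, 16 without LK GFPhi replicate 2, and 1 without LK GFPhi replicate 1, LSK GFPhi replicate 1 or LSK GFPhi replicate 2. It was 17 with the replicate block, which pairs these arrays. The calls gained without LK GFPhi replicate 2 were of both subunits, among them Mrpl1, Mrpl11, Mrps14 and Mrps25.

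The 2 WT LSK populations were not told apart by these genes. None of the 76 was called by limma, and 0 had an unadjusted p below 0.05, where 1.63% of all genes were called higher and 2.89% lower in LSK GFPhi. The median difference was -0.00, and the smallest adjusted p was 0.357 (Mrps11, -0.34 ± 0.17). Mrpl33 (0.29 ± 0.19) and Mrpl58 (0.35 ± 0.26), whose protein releases stalled peptides, came next.

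**Figure D4:**
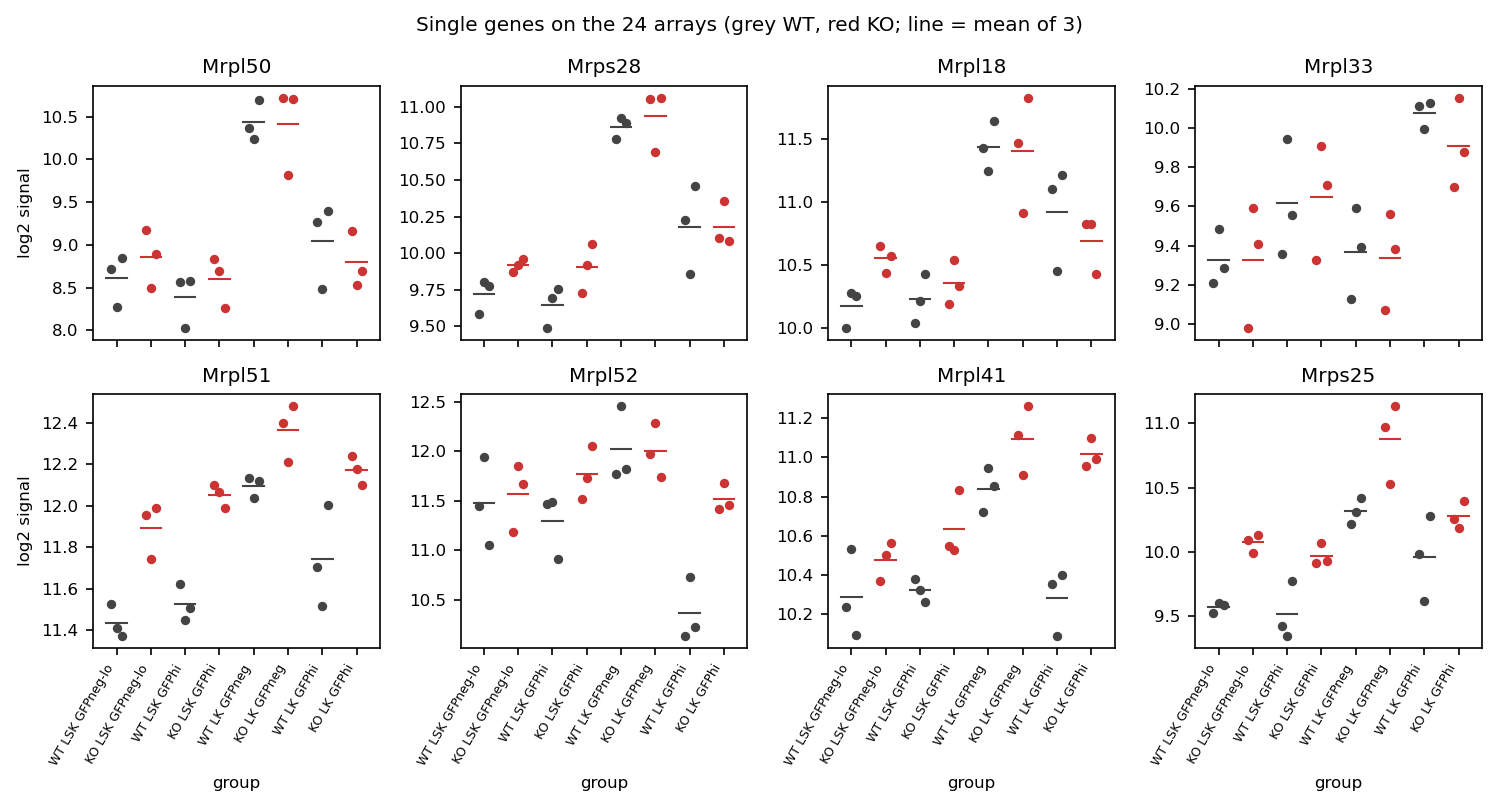
Log2 signal of 8 members on the 24 arrays by group (grey WT, red KO, replicates 1 to 3 from left to right, line at the mean of 3); each panel has its own vertical scale. Mrpl50, Mrps28 and Mrpl18 are highest in both LK GFPneg groups, Mrpl33 is highest in WT LK GFPhi, Mrpl51 is higher in KO than in WT arrays of each population, and Mrpl52 is lowest in WT LK GFPhi (10.13 to 10.73).

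Loss of Ikaros was compared within each population. In KO LSK GFPneg-lo cells 74 of 76 members had a positive difference, with a median of 0.25 against 0.03 over all genes and 0.06 over the 8290 genes of like signal. Only 1 member, Mrpl51, was called higher and 0 lower, where 1.26% of all genes were called higher and 0.879% lower. All 3 KO arrays lay above all 3 WT arrays for 29 members and below them for 0, where 10.5% of all genes lay above. Mrpl51, a large subunit protein found in mitochondria only, was 11.53, 11.41 and 11.37 in WT and 11.95, 11.74 and 11.99 in KO cells, a rise of 0.46 ± 0.11 (adjusted p = 0.0236). The 2 genotypes did not overlap. One other probe set, with a mean signal of 7.32, gave 0.56, and a dimmer one -0.08.

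The call in LSK GFPneg-lo cells was lost with array medians set equal, in the 2 groups alone, with Eif2s3y as a covariate, and without KO replicate 1, KO replicate 3 or WT replicate 3. Without WT replicate 2, Mrps16 was called in its place. With the replicate block, which pairs these arrays, 6 members were called. With medians set equal, 73 of 76 members were still positive (median 0.20), and the share of higher calls among all called genes went from 58.9% to 47.3%. The largest differences not called were those of Mrps35 (0.61, adjusted p = 0.218) and Mrpl2 (0.57, adjusted p = 0.21). Proliferation genes also had positive differences (19 of 19, median 0.33, with 1 called, Rrm2), and 3 of 5 granulocyte and monocyte genes were called higher. The part of either list in the result was not tested.

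In KO LSK GFPhi cells the members' median was 0.24 against 0.01 over all genes, with 74 of 76 positive. Mrpl38 and Mrpl51 were called higher and 0 lower, where 2.91% of all genes were called higher and 1.69% lower. The KO arrays all lay above the WT arrays for 20 members (9.67% of all genes). Mrpl38, of the large subunit, was 8.23, 8.06 and 8.35 in WT and 8.71, 8.96 and 9.003 in KO cells, a rise of 0.68 ± 0.16 (adjusted p = 0.0123), and its other probe sets gave 0.13 and 0.15. Mrpl51 was 11.62, 11.45 and 11.51 in WT and 12.10, 12.07 and 11.99 in KO cells, a rise of 0.52 ± 0.11 (adjusted p = 0.00421). The genotypes were apart for both.

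Mrpl38 was not called without WT LSK GFPhi replicate 2, KO replicate 2 or KO replicate 3, and neither gene was called with Eif2s3y as a covariate. With medians set equal, 69 of 76 members were positive (median 0.18) and the share of higher calls among all called genes went from 63.3% to 53.3%. Of 91 respiratory chain and ATP synthase genes 4 rose and 0 fell (median 0.22), whereas 0 of 50 cytosolic ribosomal protein genes were called (median 0.00). The proliferation list had a median of 0.10 with 1 of 19 higher. In the same cells 5 of 5 lymphoid-primed genes fell. Of other lists, 2 of 5 granulocyte and monocyte, 2 of 6 megakaryocyte and erythroid and 2 of 4 mast cell and basophil genes rose. Of the stem cell genes, Fgd5 (7.43 in WT, 11.32 in KO), Procr (8.98, 11.46) and Slamf1 (7.22, 7.83) had higher means. Hlf (10.49, 9.79) and Mecom (9.67, 9.38) had lower means. The part of a changed cell make-up was not tested.

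In KO LK GFPneg cells 0 members were called by limma and 6 had an unadjusted p below 0.05, where 1.20% of all genes were called higher and 1.45% lower. The median was 0.12 against 0.04, with 63 of 76 positive, and the KO arrays lay above the WT arrays for 5 members (8.26% of all genes). Mrps25, of the small subunit, was 10.22, 10.31 and 10.42 in WT and 10.97, 10.53 and 11.14 in KO cells (0.57 ± 0.15, adjusted p = 0.0558). The genotypes were apart, and the gene was called without KO replicate 2, and with the replicate block, which pairs these arrays (adjusted p = 0.00874). Mrps11 (0.45 ± 0.17) and Mrpl51 (0.27 ± 0.11) came next. Without KO replicate 2, the KO array of this population with Eif2s3y at 8.33, the members' median was 0.25, and without KO replicate 3 it was 0.03.

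In KO LK GFPhi cells 9 members rose and 0 fell, where 5.78% of all genes rose and 3.79% fell. The median was 0.19 against 0.07, with 61 of 76 positive, so the members were more spread than in the LSK cells (quartiles 0.02 and 0.40). All genes were more spread here too, with quartiles of -0.09 and 0.21. Those were -0.06 and 0.14 in LSK GFPneg-lo and -0.09 and 0.12 in LSK GFPhi cells. The KO arrays lay above the WT arrays for 15 members, a count near the 17.1% of all genes that did so. Array medians were 0.13 higher in these KO cells. With medians set equal, 6 of the 9 stayed called, 47 of 76 members were positive with a median of 0.06, and the share of higher calls among all called genes went from 60.4% to 35.5%.

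Mrpl52 was 10.13, 10.73 and 10.22 in WT and 11.41, 11.68 and 11.46 in KO LK GFPhi cells, a rise of 1.16 ± 0.25 (2.23-fold, adjusted p = 0.0045). Its 2 other bright probe sets gave 1.37 and 1.15, and a dim one -0.10. Mrpl41, of the large subunit, was 10.35, 10.08 and 10.40 in WT and 10.96, 11.10 and 10.99 in KO cells, a rise of 0.74 ± 0.12 with the smallest adjusted p of the members here (0.000499). Its second bright probe set gave 0.41 and a dim one -0.00. Mrpl43 was 9.18, 9.54 and 9.55 in WT and 9.95, 10.28 and 10.72 in KO cells (0.89 ± 0.22, adjusted p = 0.0115). All KO arrays lay above all WT arrays for these 3 genes. The neighbour of Mrpl43, Twnk, differed by 0.13 ± 0.18 and was not called.

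Mrpl17 (0.64 ± 0.14), Mrps24 (0.58 ± 0.13), Mrps16 (0.55 ± 0.13), Mrpl51 (0.43 ± 0.11) and Mrpl22 (0.41 ± 0.13) rose with no overlap between genotypes. Mrpl36 (0.54 ± 0.16) rose with overlap, from 9.73, 9.77 and 9.98 to 9.97, 10.59 and 10.56. Mrps24, the member nearest to Ikzf1, differed by 0.39, 0.40, 0.26 and 0.58 in the 4 populations in the order above, and its other probe set gave 0.33, 0.46, 0.33 and 1.05. By place, 3 of 29 large subunit genes with a bacterial counterpart, 4 of 16 large subunit genes found in mitochondria only and 2 of 16 small subunit genes with a bacterial counterpart rose. The 10 small subunit genes found in mitochondria only held no call. Their median difference was 0.21, against 0.20, 0.16 and 0.14 in the other lists in the order above. With the replicate block Mrps27 and Mrps34 of these 10 were called. At the other end Mrpl1 (-0.67, adjusted p = 0.334) and Mrpl27 (-0.26, adjusted p = 0.609) were not called.

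The list of called members moved with the arrays and the model used. With the replicate block, which pairs these arrays, 23 members were called, among them all 9. In the 2 groups alone only Mrpl41 and Mrpl52 were called. Without WT replicate 1 there were 4 calls, without KO replicate 3 there were 5 (Mrpl17, Mrpl41, Mrpl51, Mrpl52 and Mrps24), and without KO replicate 1 there were 14. KO replicate 3 also had the highest mean of 3 eosinophil genes, 11.16 against 7.31 and 9.02 on the other KO arrays and 5.55 to 5.90 on the WT arrays. All 3 of these genes were called higher, as were 3 of 4 mast cell and basophil genes (means of 9.47 to 10.69 on KO and 7.64 to 8.15 on WT arrays) and 4 of 6 megakaryocyte and erythroid genes, and 4 of 5 lymphoid-primed genes were called lower. Their part in the result was not tested.

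Of the wider machinery, Polrmt, the gene of the mitochondrial RNA polymerase, rose in KO LK GFPhi cells by 1.21 ± 0.22 (adjusted p = 0.00146). None of the 8 translation factor, 16 tRNA synthetase, 19 assembly or 4 other ribosomal protein genes was called there. Of 91 respiratory chain and ATP synthase genes 12 rose and 0 fell (median 0.18), and of 50 cytosolic ribosomal protein genes 0 were called (median 0.06). Proliferation genes had a median of -0.16 with Top2a lower. Nrf1 (-0.45 ± 0.11) and Yy1 (-0.41 ± 0.13), the genes of 2 of the factors whose motifs were searched, fell in these cells, while Gabpa (-0.67 ± 0.22, adjusted p = 0.0613) was not called.

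**Figure D5:**
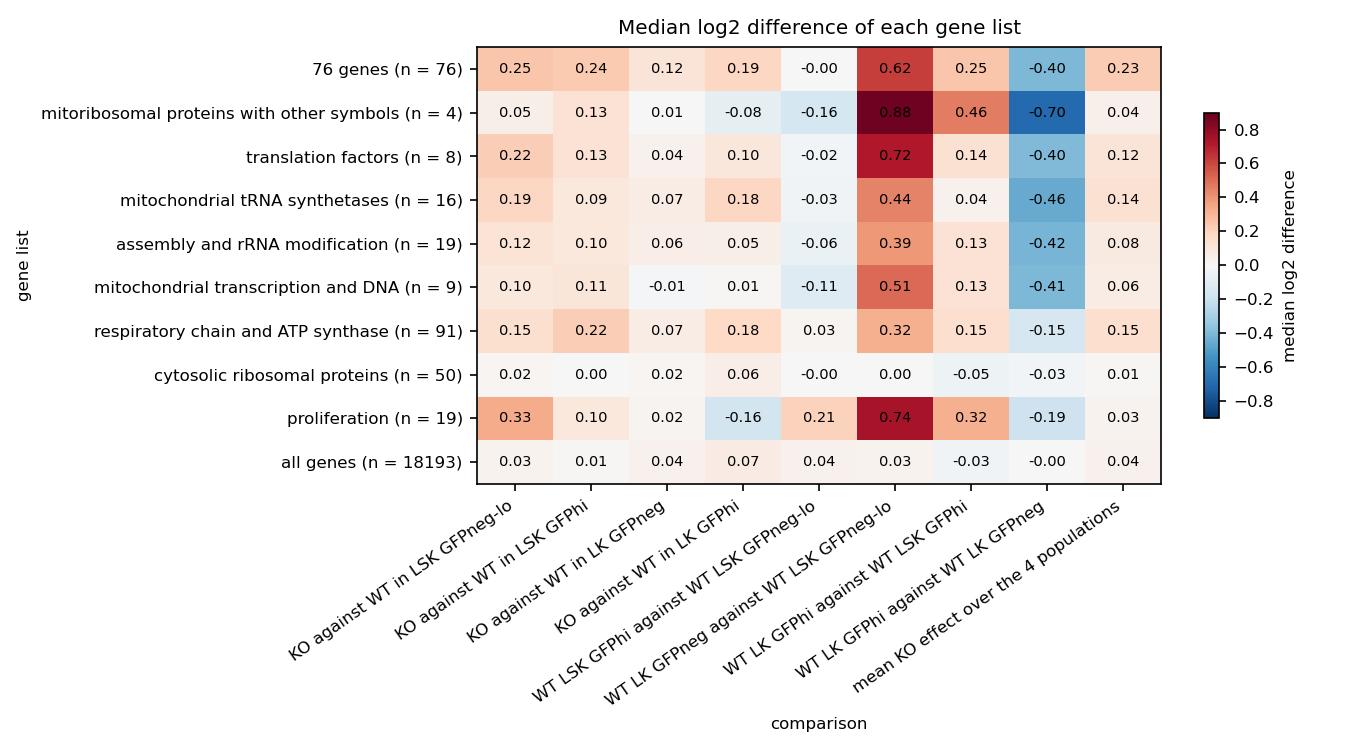
Median log2 difference of each gene list (rows, number of measured genes in brackets) in 8 comparisons and for the mean KO effect (columns), printed in each cell and coloured by value. The 76 genes have positive medians in all 4 KO comparisons (0.25, 0.24, 0.12 and 0.19), and the 50 cytosolic ribosomal protein genes stay between -0.05 and 0.06 in every column.

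Averaged over the 4 populations, the KO effect was positive for 74 of 76 members with a median of 0.23 against 0.04 over all genes. It was called higher for 27 members and lower for 0, where 9.76% of all genes were higher and 6.36% lower. Mrpl43 (0.49 ± 0.11), Mrps25 (0.46 ± 0.08) and Mrpl52 (0.43 ± 0.12) had the largest means, and Mrpl51 (0.42 ± 0.05, 1.34-fold) the smallest adjusted p (1.01e-05). The calls came from 9 of 29 large subunit genes with a bacterial counterpart, 7 of 16 large subunit genes found in mitochondria only, 5 of 16 and 4 of 10 small subunit genes of the same kinds, Mrps18a (0.31) and Mrps36 (0.31). Mrps30 (0.13), the other S-named protein of the large subunit, was not called. The 4 ribosomal protein genes with other symbols had a median of 0.04 and no call.

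For the 27 called genes, 20 of 27 other probe sets had the same sign, and 16 of the 19 brighter than the median probe set. With medians set equal, 16 of the 27 stayed called, 68 of 76 members were positive with a median of 0.16, and the share of higher calls among all called genes went from 60.5% to 39.5%. With Eif2s3y as a covariate, 69 of 76 were positive with a median of 0.14 and 2 were called, Mrpl51 (0.36 ± 0.09, adjusted p = 0.0183) and Mrps16 (0.40 ± 0.11). The median standard error of the members rose from 0.09 to 0.14 in that fit. Eif2s3y was below its lowest WT value (7.88) on 10 of 12 KO arrays, 7 of them at 3.99 to 4.14, so the covariate and genotype overlap and are only partly told apart in this fit. The covariate also follows the replicate number, with WT replicate 2 at 7.88 to 8.10 and the other WT arrays at 8.91 to 10.40. In the mean effect, 24 of 91 respiratory chain genes, 4 of 16 tRNA synthetase genes, 3 of 19 assembly genes, 1 of 8 translation factor genes (Tufm, 0.45 ± 0.10) and 3 of 19 proliferation genes rose and none of these lists held a fallen gene. Of 50 cytosolic ribosomal protein genes 4 rose and 1 fell.

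Whether the KO effect differed between populations was tested directly, and 0 members were called in any of 4 interactions by limma. From LSK GFPneg-lo to LSK GFPhi, 0 had an unadjusted p below 0.05 (0.198% and 0.115% of all genes were called with a larger and a smaller effect). From LSK GFPneg-lo to LK GFPneg there was 1, Mrps2 (-0.29 ± 0.13; 0.319% and 0.489% of all genes). From LSK GFPhi to LK GFPhi there were 3, led by Mrpl38 (-0.74 ± 0.22, adjusted p = 0.338; 0.0660% and 0.0770% of all genes). From LK GFPneg to LK GFPhi there were 5, led by Mrpl52 (1.17 ± 0.35, adjusted p = 0.0968; 1.70% and 0.792% of all genes). Mrpl52 was called in this interaction with the replicate block (adjusted p = 0.00866), which pairs these arrays. The share of larger effects among all called genes of that last interaction went from 68.3% to 54.5%, and the members' median from 0.11 to 0.00, with array medians set equal.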

How the data were processed

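RNA of 24 samples (8 groups of 3) was measured on Affymetrix mouse arrays. RMA was used by the authors to summarise the arrays, per the submitters' processing notes, its version not being given there. The deposited values are log2 signal, from 3.33 to 14.51. Of 45101 probe sets, 64 controls, 932 with several symbols and 9160 with none were left out, and the brightest probe set per symbol gave 18193 genes (platform annotation, 0 symbols changed against the GRCm38.p6 gene table).

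Each comparison was a contrast in limma 3.58.1 (R 4.3.3), from 1 fit of 8 group means (16 residual and 3.27 prior degrees of freedom), with errors as moderated standard errors and two-sided p-values adjusted by Benjamini and Hochberg over all genes within a comparison, at 0.05. Nothing in the labels ties an array to 1 animal, so p-values reflect array-to-array spread only, and an exact permutation test of 3 against 3 cannot go below 0.1. The steps were tested on simulated data.

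The members and lists were chosen with earlier results of these data known. Members are named by rule: up to 6 called members each way with the largest difference per comparison of groups (3 for interactions and the mean), otherwise the 3 with the smallest p. Also named are the brightest and dimmest 3, the 5 with the widest range, the S18 paralogs, Mrps30 and Mrps36. Members with disagreeing probe sets are named for the KO effect within a population. For comparisons of WT groups and the mean effect, disagreeing probe sets are given as counts. The calls in KO LK GFPhi beyond these, the smallest p, the genes least and most like the rest and the extremes not called were named after their values were seen. For WT LK GFPneg against LSK GFPneg-lo the 2 called genes of each mitochondrial list with the smallest p are named, and other pathway genes were picked after their values were seen.

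Same-numbered arrays were taken as paired where their residuals across genes correlated at over 0.1 in every pair. The smallest r met this in the KO contrasts of LSK GFPneg-lo cells (0.276), LK GFPneg cells (0.359) and LK GFPhi cells (0.175), in all 4 contrasts among WT groups (0.171 to 0.582) and in the interaction of the LK populations (0.169), but not in LSK GFPhi cells (0.0238), the other 3 interactions or the mean effect (-0.0891). The pairing comes from replicate numbers in the titles and these correlations.

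Alternatives were the compared groups alone, the replicate block, omission of the 40% of probe sets with the lowest means, omission of those ending in _x_at or _s_at, the mean of a gene's probe sets, a mean-dependent robust variance prior in eBayes, weights per array, centring of arrays on their medians, Eif2s3y level as a covariate, and each array left out.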

Additional observations from a re-analysis of the deposited data

How the results depend on the processing

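The counts of called genes are small and moved with the model. In the compared groups alone the count was 0 for the KO effect in LSK GFPneg-lo cells, 2 for that in LK GFPhi cells and 0 for WT LK GFPhi against LSK GFPhi. With array weights it was 5 for the KO effect in LSK GFPneg-lo cells, 7 for LSK GFPhi cells, 3 for LK GFPneg cells, 23 for WT LK GFPhi against LSK GFPhi and 2 for the interaction of the LK populations. Median centring gave 0 for the KO effect in LSK GFPneg-lo cells, 37 for WT LK GFPhi against LK GFPneg and 16 for the mean KO effect. With Eif2s3y as a covariate the counts were 0 in both LSK populations and 2 for the mean effect. Leaving out _x_at and _s_at probe sets, or averaging probe sets, gave 1 in LSK GFPhi.

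With the replicate number as a block, the KO effect had 6 calls in LSK GFPneg-lo cells, 11 calls in LSK GFPhi cells, 1 call in LK GFPneg cells and 23 calls in LK GFPhi cells. The count was 17 for WT LK GFPhi against LSK GFPhi, 41 for WT LK GFPhi against LK GFPneg, 1 for the interaction of the LK populations and 44 for the mean effect, among them all 27. The block left the other counts within 1.5 times.

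Leaving out 1 array at a time gave 0 to 1 calls for the KO effect in LSK GFPneg-lo cells, 1 to 3 calls in LSK GFPhi cells, 0 to 1 calls in LK GFPneg cells and 4 to 14 calls in LK GFPhi cells. It gave 42 to 53 for WT LK GFPneg against LSK GFPneg-lo, 0 to 16 for WT LK GFPhi against LSK GFPhi, 11 to 32 for WT LK GFPhi against LK GFPneg and 21 to 31 for the mean effect. For named genes, the compared groups alone, the replicate block, the robust variance prior and omission of dim probe sets leave the difference itself unchanged. Those settings could not reverse a direction. For single named genes, 761 of the recomputed differences kept direction and side of the threshold, 62 lost their call, 6 gained one and 0 reversed. The causes were not tested.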
